A study of Homo sapiens with 12 samples.

Results

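The BCL2 family of apoptosis regulators was followed here through 10 genes, chosen by name: the anti-apoptotic members BCL2, BCL2L1 and MCL1, the pore-forming effectors BAX and BAK1, and the BH3-only members BID, BIK, BBC3, PMAIP1 and BCL2L11. All 10 were listed among the 15601 genes of the table over all libraries. RNA was sequenced from SNU449, a human hepatocellular carcinoma (HCC) cell line, in 12 QuantSeq libraries that fall into 4 groups of 3. SNU449-ctrl cells had an intact AXL gene and no induced resistance, and SNU449-Rego cells were derived from SNU449 by adaptation to Regorafenib (Rego), a tyrosine kinase inhibitor. SNU449-Axl-KO-ctrl cells lacked the receptor tyrosine kinase Axl after CRISPR/Cas9 editing, and SNU449-Axl-KO-Rego cells lacked Axl and were Rego-resistant. Resistance was induced from a start at 50% of the IC50, with stepwise increases up to 2 times the IC50. The 3 libraries of a group are technical triplicates of 1 cell population, so that the p-values measure the spread between libraries only and an effect of Rego or Axl cannot be told apart from a difference between populations. Whether the Axl-KO cells were 1 clone is not given in the sources used here.

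Proteins of the BCL2 family decide at the mitochondrial outer membrane whether a cell enters intrinsic apoptosis. BAX and BAK1 permeabilize this membrane and release cytochrome c, while BCL2, BCL-XL (the product of BCL2L1) and MCL1 hold them back. BH3-only proteins sense stress and act through the BH3 helix, which docks into the groove of the anti-apoptotic members or activates the effectors. In HCC, MCL1 and BCL-XL are known as survival proteins of the tumor cell, and BIM (the product of BCL2L11) and PUMA (the product of BBC3) are known as mediators of cell death under kinase inhibition.

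The BH3 core was located in all 10 members by a search pattern, and its coding bases are shown. In the translated canonical transcripts of GENCODE release 44, the pattern of a leucine, 3 further residues, a glycine or alanine and an aspartate occurred exactly once in each of the 10 proteins. The lines below give 30 coding bases per gene on GRCh38, 5′ to 3′ along the coding strand, with the 18 bases of the core in capitals and 6 flanking bases on each side. Each stretch lies within 1 coding exon.
BCL2 (chr18:63318355-63318384, minus strand, exon 2): ctgaccCTCCGCCAGGCCGGCGACgacttc
BCL2L1 (chr20:31721928-31721957, minus strand, exon 2): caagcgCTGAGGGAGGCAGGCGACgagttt
MCL1 (chr1:150578871-150578900, minus strand, exon 1): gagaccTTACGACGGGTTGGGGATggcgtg
BAX (chr19:48955781-48955810, plus strand, exon 3): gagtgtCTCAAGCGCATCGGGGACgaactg
BAK1 (chr6:33575393-33575422, minus strand, exon 4): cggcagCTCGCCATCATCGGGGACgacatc
BID (chr22:17739421-17739450, minus strand, exon 4): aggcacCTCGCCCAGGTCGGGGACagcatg
BIK (chr22:43127710-43127739, plus strand, exon 3): ctgcggCTGGCCTGCATCGGGGACgagatg
BBC3 (chr19:47226585-47226614, minus strand, exon 3): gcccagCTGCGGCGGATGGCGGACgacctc
PMAIP1 (chr18:59902667-59902696, plus strand, exon 2): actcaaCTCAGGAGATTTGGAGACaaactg
BCL2L11 (chr2:111150097-111150126, plus strand, exon 3): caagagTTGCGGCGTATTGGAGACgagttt

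Over the 45 pairs of members, between 7 and 15 of the 18 core bases were identical, with a median of 10. The leucine, the glycine or alanine and the aspartate were set by the search pattern, so that part of this identity follows from the selection. How often the pattern occurs in other proteins was not examined. The closest pair was an effector and a BH3-only member, BAK1 and BIK, with 15 identical bases. Glycine stood before the aspartate in 9 members and alanine in 1, BBC3. The core ended with the codon GAC in 9 members, and MCL1 was the exception. QuantSeq reads start near the 3′ end of the mRNA. These coding bases describe the members, and whether reads covered them was not examined.

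A library value in the deposited tables is a whole number that equals 2 raised to the variance-stabilized level of a gene after removal of the preparation effect, and it is not proportional to reads. Differences of weakly expressed genes are therefore smaller on this scale than in counts. The comparisons come from a limma fit to log2(value + 1) of all 15601 genes, with the replicate number as a block, and a gene was called at a Benjamini-Hochberg adjusted p under 0.05. As a check of the groups, AXL had library values of 727, 941 and 715 in SNU449-ctrl cells and of 35, 53 and 33 in SNU449-Axl-KO-ctrl cells. In Rego-resistant cells AXL stood at 1237, 815 and 1271 with the intact gene and at 50, 38 and 52 in SNU449-Axl-KO-Rego cells. AXL was lower by a log2 difference of -4.29 (SE 0.24, adjusted p = 2.16e-09) in control cells and of -4.52 (SE 0.24, adjusted p = 1.27e-09) in resistant cells. Of 10 hepatocyte markers 3 were listed, with FGB highest at a mean normalized count of 103.7, and albumin was not. All 4 mesenchymal markers were present, from ZEB1 at 158.2 to VIM at 18950. Of 4 epithelial markers 2 were listed, KRT8 at 266.8 and KRT18 at 1092, while EPCAM and CDH1 were not. Of 4 immune markers 3 were listed, at 1.12 to 6.19, and none of 3 endothelial markers was listed. When libraries were centred on the spike-in RNAs instead of used as deposited, the median of all genes moved to -0.058, 0.127, 0.129 and 0.318 in the comparisons of Rego in SNU449, Rego in Axl-KO cells, Axl-KO in control cells and Axl-KO in resistant cells, and to -0.189 in the difference of the Rego effects. Higher genes then made up 44%, 81.3%, 75.4%, 96.4% and 26% of the calls in this order, against 55.2%, 58.4%, 54%, 55.9% and 50.3% as deposited. This centring rests on the median of only 32 spike-in RNAs. Their mean normalized counts sum to 2193, against 4510030 for the genes.

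MCL1, the short-lived survival protein, was the most abundant member, with an authors' mean normalized count of 977 over all libraries. Its count was at the 95.6th percentile of all genes. BBC3 followed with 210.02, BCL2L1 with 203, BID with 176 and PMAIP1, which encodes the MCL1 antagonist NOXA, with 128. BCL2L11 and BAK1 were near the middle of all genes with 51.9 and 42.6, and BAX and BCL2 were lower with 25.5 and 21.1. BIK was close to the limit of detection with 3.2, at the 11.9th percentile, and was not listed in the table that compares both control groups. These are counts of 3′ ends, which do not scale with transcript length, but the efficiency of priming differs between genes and the order is a description. Reads per library were not analysed here, so that the depth of a library is unknown. Group means of the normalized counts were solved from the authors' means of the pairs of groups, which fitted to within 1.05% for all members, and carry no error. On this scale MCL1 was 846, 729, 1037 and 1331 in SNU449-ctrl, SNU449-Rego, SNU449-Axl-KO-ctrl and SNU449-Axl-KO-Rego cells, and BIK was 1.17, 5.82, 2.39 and 3.31.

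**Figure D1:**
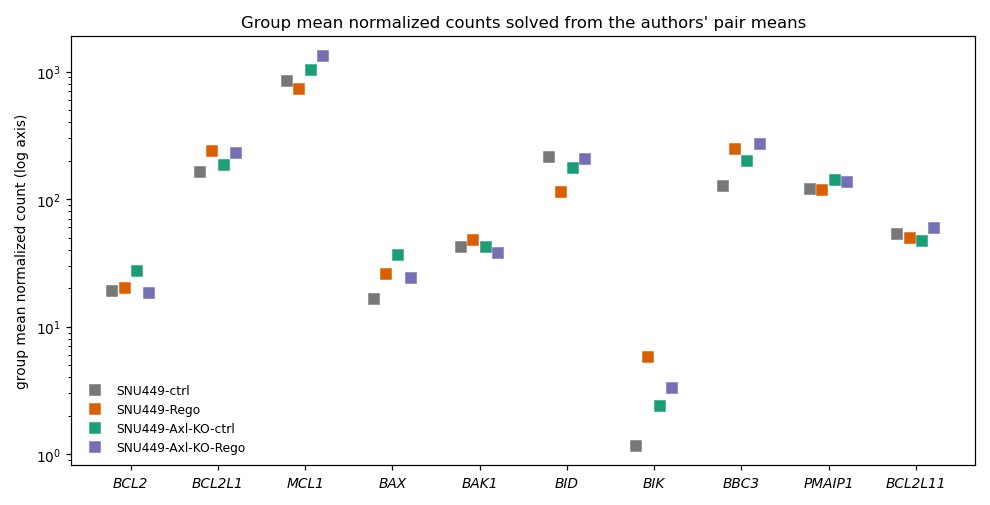
Mean normalized count (log axis) of each of the 10 members in the 4 groups, solved from the authors' means of pairs of groups, 1 square per group and without error. MCL1 lies above all other members in each group, at 729 to 1331, and BIK below all others, at 1.17 to 5.82.

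None of the 10 members passed the test in any comparison between groups. Between Rego-resistant and control SNU449 cells, 0 of 10 were called, while 7.81% of all genes were, 4.31% higher and 3.5% lower. In Axl-KO cells, 0 of 10 differed with Rego resistance at this threshold against 4.35% of all genes, 2.54% higher and 1.81% lower. Between Axl-KO and SNU449 cells, 0 of 10 were called in control cells against 7.45% of all genes (4.03% higher, 3.43% lower), and 0 of 10 in resistant cells against 4.37% (2.44% higher, 1.93% lower). The difference of the Rego effects between the backgrounds was called for 0 of 10 members and for 5.87% of all genes. The limma p before adjustment was under 0.05 for 4, 0, 1 and 1 members in the group comparisons in this order, where the shares of all genes were 21.3%, 18.6%, 21.5% and 18.2%, and for 1 member in the difference of the Rego effects, against 19.4%.

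The values of the groups did not overlap for 2 members with Rego in SNU449 (27.9% of all genes), for 2 with Rego in Axl-KO cells (29.1%), for 0 with Axl-KO in control cells (27.9%) and for 1 with Axl-KO in resistant cells (28%). Each of these counts is a smaller share than that of all genes, except for the 4 of 10 members with an unadjusted p under 0.05 with Rego in SNU449. In a list of 10 such differences rest on few genes, and no share was tested for the list. The median size of the log2 difference over the members was 0.27, 0.20, 0.15 and 0.20 in the group comparisons, next to 0.22, 0.21, 0.22 and 0.20 over all genes. Standard errors of the members ran from 0.18 to 0.26 in the group comparisons. The 95% intervals lay within 1 on the log2 scale in both directions for 7 of 10 members with Rego in SNU449 and for all 10 in each of the other group comparisons. The exceptions were BBC3, with an upper bound of 1.36, BCL2L1, with an upper bound of 1.06, and BID, with a lower bound of -1.02.

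**Figure D2:**
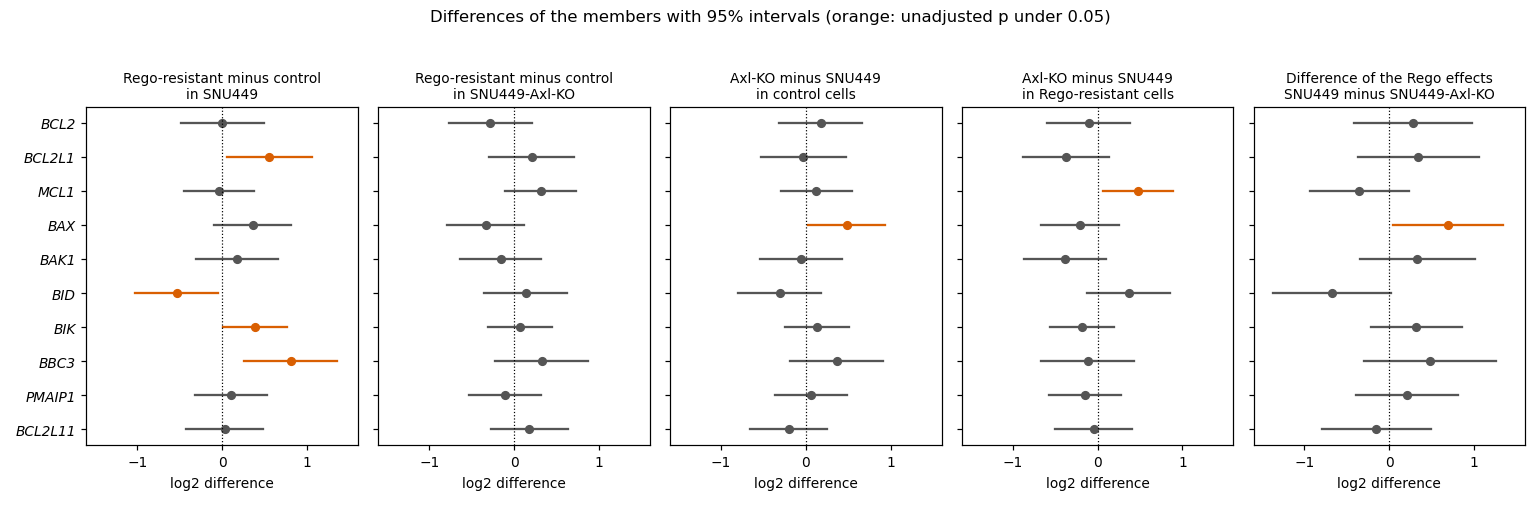
Log2 difference of library values (points) with its 95% interval from limma (lines) for the 10 members in the 4 group comparisons and for the difference of the Rego effects; orange marks an unadjusted p under 0.05. In the 4 group comparisons the largest values are those of BBC3 (0.81), BCL2L1 (0.55) and BID (-0.54) with Rego in SNU449, the difference of the Rego effects reaches 0.69 for BAX and -0.68 for BID, and none of the members passed the adjusted threshold.

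Among the anti-apoptotic members, BCL2L1 had the largest difference with Rego. Its library values were 177, 213 and 177 in SNU449-ctrl cells and 248, 267 and 320 in SNU449-Rego cells. Every resistant library lay above every control library, with a log2 difference of 0.55 (SE 0.24, 95% interval 0.05 to 1.06, adjusted p = 0.184), which did not pass the threshold. In the table of these groups alone and without the replicate block the difference was 0.47 with an adjusted p of 0.0203. That setting called 2947 of all genes, against 603 with the block. Fits without the block ignore the tie between libraries of 1 replicate number, so that their p-values, here and below, are too small. In SNU449-Axl-KO-ctrl cells the values were 232, 210 and 129, and in SNU449-Axl-KO-Rego cells 201, 172 and 282. These groups overlapped, and the difference was 0.21 (95% interval -0.29 to 0.71, adjusted p = 0.700). Between the resistant populations, BCL2L1 was lower in Axl-KO cells by a log2 difference of -0.37 (95% interval -0.87 to 0.13, adjusted p = 0.448), which was -0.068 when centred on the spike-in RNAs. The solved mean counts were 164 and 238 in SNU449-ctrl and SNU449-Rego cells and 184 and 229 in the Axl-KO groups.

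MCL1 differed most between the resistant populations. It had library values of 819, 947 and 792 in SNU449-Rego cells and of 1177, 1361 and 1037 in SNU449-Axl-KO-Rego cells. The groups did not overlap, and the log2 difference was 0.48 (SE 0.20, 95% interval 0.06 to 0.89, adjusted p = 0.199). It passed the threshold when libraries were centred on the spike-in RNAs (0.78, adjusted p = 0.0111), a scaling under which the median of all genes was 0.318 in this comparison, and in the table of these groups alone without the replicate block (0.45, adjusted p = 0.00223). With control cells at 984, 796 and 849 in SNU449 and 882, 816 and 1200 in Axl-KO, MCL1 had differences of -0.04 (95% interval -0.45 to 0.38) with Rego in SNU449, 0.31 (95% interval -0.10 to 0.73) with Rego in Axl-KO and 0.13 (95% interval -0.29 to 0.54) with Axl-KO in control cells. The MCL1 gene shares 43 bases of its locus with the end of ADAMTSL4 on the opposite strand, which had a mean normalized count of 5.98.

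BCL2, the founding member, was weakly expressed. Its library values were 51, 59 and 35 in SNU449-ctrl, 50, 34 and 62 in SNU449-Rego, 49, 57 and 55 in SNU449-Axl-KO-ctrl and 42, 46 and 44 in SNU449-Axl-KO-Rego cells. Of these comparisons, only the Axl-KO groups did not overlap, with a log2 difference of -0.28 (95% interval -0.77 to 0.21, adjusted p = 0.572) with Rego. In the table of these groups alone and without the block it was -0.18 with an adjusted p of 0.0231. With Rego in SNU449 the difference was 0.00058 (95% interval -0.49 to 0.49, adjusted p = 1).

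**Figure D3:**
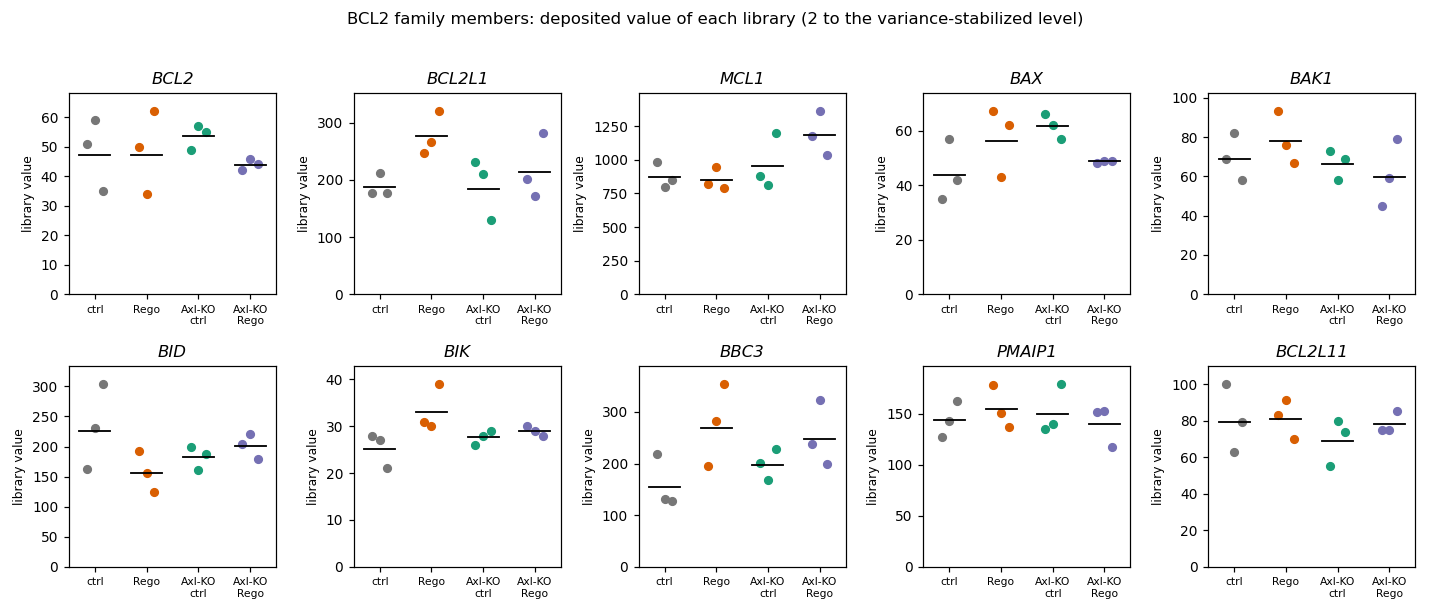
Deposited value of each library (points, linear axis from 0) for the 10 members in SNU449-ctrl, SNU449-Rego, SNU449-Axl-KO-ctrl and SNU449-Axl-KO-Rego cells, with the group mean taken on the log2 scale as a line. BCL2L1 and BIK of SNU449-Rego lie above SNU449-ctrl without overlap, MCL1 of SNU449-Axl-KO-Rego lies above SNU449-Rego, and most other groups overlap.

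The effector BAX showed opposite signs with Rego in the backgrounds. Library values were 35, 57 and 42 in SNU449-ctrl and 67, 43 and 62 in SNU449-Rego cells, which overlapped, with a log2 difference of 0.36 (95% interval -0.10 to 0.81, adjusted p = 0.373). In Axl-KO cells they were 66, 62 and 57 in controls and 48, 49 and 49 in resistant cells, without overlap, with a difference of -0.33 (95% interval -0.79 to 0.12, adjusted p = 0.446). The difference between these Rego effects was 0.69 (SE 0.31, 95% interval 0.04 to 1.33, adjusted p = 0.217) and did not pass the threshold. SNU449-Axl-KO-ctrl cells were higher than SNU449-ctrl cells by 0.48 (95% interval 0.03 to 0.94, adjusted p = 0.203), with 1 SNU449-ctrl library, at 57, reaching the lowest Axl-KO library. In the tables of 2 groups alone and without the block, BAX was called with Rego in Axl-KO cells (-0.21, adjusted p = 0.0199) and with Axl-KO in control cells (0.38, adjusted p = 0.0454). Solved mean counts of BAX were 16.5, 25.9, 36.2 and 23.9 in SNU449-ctrl, SNU449-Rego, SNU449-Axl-KO-ctrl and SNU449-Axl-KO-Rego cells.

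BAK1, the other effector, had overlapping values in every comparison. They ran from 58 to 82 in SNU449-ctrl, 67 to 93 in SNU449-Rego, 58 to 73 in SNU449-Axl-KO-ctrl and 45 to 79 in SNU449-Axl-KO-Rego cells. Its differences with Rego were 0.17 (95% interval -0.31 to 0.65) in SNU449 and -0.16 (95% interval -0.64 to 0.32) in Axl-KO cells. In resistant cells Axl-KO stood below SNU449 by a log2 difference of -0.39 (95% interval -0.87 to 0.09, adjusted p = 0.400), which was -0.081 when centred on the spike-in RNAs.

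Of the BH3-only members, BBC3 came closest to the threshold. It encodes PUMA, which binds all anti-apoptotic members. Library values were 218, 131 and 127 in SNU449-ctrl and 196, 282 and 354 in SNU449-Rego cells. The highest control library exceeded the lowest resistant library, and the log2 difference was 0.81 (SE 0.26, 95% interval 0.26 to 1.36, adjusted p = 0.0684), a 1.75-fold difference of values. BBC3 passed the threshold without the replicate block (adjusted p = 0.0388), without replicate 1 of SNU449-ctrl (1.14, adjusted p = 0.0146) and without replicate 1 of SNU449-Rego (1.11, adjusted p = 0.0245). Both of these libraries are the ones that made the groups overlap. In Axl-KO cells the values were 201, 169 and 228 in controls and 237, 324 and 199 in resistant cells, with a difference of 0.33 (95% interval -0.22 to 0.87, adjusted p = 0.554). The difference of the Rego effects was 0.48 (95% interval -0.30 to 1.26, adjusted p = 0.528). Solved mean counts were 128 and 249 in SNU449-ctrl and SNU449-Rego cells and 198 and 268 in the Axl-KO groups.

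BID, which is cleaved by caspase-8 and links death receptors to mitochondria, had the lowest log2 difference of the members with Rego in SNU449. Its values were 163, 231 and 304 in SNU449-ctrl and 193, 156 and 124 in SNU449-Rego cells. The groups overlapped, with a difference of -0.54 (SE 0.23, 95% interval -1.02 to -0.05, adjusted p = 0.186). Without replicate 1 of SNU449-ctrl, the lowest control library, it was -0.85 with an adjusted p of 0.0359. In the Axl-KO groups BID stood at 199, 161 and 188 in controls and 204, 221 and 179 in resistant cells, a difference of 0.14 (95% interval -0.35 to 0.63, adjusted p = 0.806). Between these Rego effects the difference was -0.68 (95% interval -1.37 to 0.02, adjusted p = 0.271). Axl-KO-Rego cells were above SNU449-Rego cells by 0.37 (95% interval -0.12 to 0.86, adjusted p = 0.438), which was called only in the table of these groups alone without the block (0.26, adjusted p = 0.0355) and was 0.67 when centred on the spike-in RNAs (adjusted p = 0.0625). The solved mean counts of BID were 213 in SNU449-ctrl, 115 in SNU449-Rego, 176 in SNU449-Axl-KO-ctrl and 207 in SNU449-Axl-KO-Rego cells.

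BIK, a BH3-only protein of the endoplasmic reticulum, had values of 28, 27 and 21 in SNU449-ctrl and of 31, 30 and 39 in SNU449-Rego cells. These did not overlap, and the log2 difference was 0.38 (SE 0.18, 95% interval 0.01 to 0.76, adjusted p = 0.225). The Axl-KO groups held 26 to 29 in controls and 28 to 30 in resistant cells. At solved mean counts of 1.17 and 5.82 in SNU449-ctrl and SNU449-Rego cells, the library values are close to the lowest value of 12 in the table, and the difference is compressed.

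PMAIP1 and BCL2L11 showed no difference beyond their spread. PMAIP1 values lay between 117 and 179 in all 12 libraries, and its differences ran from -0.14 (95% interval -0.57 to 0.28) with Axl-KO in resistant cells, which was 0.16 when centred on the spike-in RNAs, to 0.11 (95% interval -0.32 to 0.53) with Rego in SNU449. BCL2L11, whose product BIM is known to be held down by MAPK signaling, was 100, 63 and 79 in SNU449-ctrl and 83, 91 and 70 in SNU449-Rego cells, a difference of 0.03 (95% interval -0.43 to 0.48, adjusted p = 0.966). In Axl-KO cells BCL2L11 was 55, 80 and 74 in controls and 75, 75 and 85 in resistant cells, a difference of 0.18 (95% interval -0.27 to 0.64, adjusted p = 0.716). The BCL2L11 locus lies inside that of the long noncoding RNA MIR4435-2HG on the opposite strand, which had a mean normalized count of 68.0, and whether reads were counted by strand is not given in the sources used here.

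Around these members, 73 further genes of the pathway were listed in 9 groups, of which 69 were in the table. With Rego in SNU449, 7 of 69 were called (10.1%, against 7.81% of all genes), 1 higher and 6 lower. With Rego in Axl-KO cells 6 were called (8.7%, against 4.35% of all genes), 2 higher and 4 lower. With Axl-KO 6 were called in control cells (8.7%, against 7.45%), 3 higher and 3 lower, and 5 in resistant cells (7.25%, against 4.37%), 2 higher and 3 lower. In the difference of the Rego effects 5 were called (7.25%, against 5.87%). None of these shares was tested against that of all genes. The median log2 difference over the 69 genes was -0.13, -0.10, -0.08 and -0.0016 in the group comparisons. No gene was called among the 9 factors of the mitochondrial outer membrane and intermembrane space, the 8 apoptosome and caspase genes or the 6 transcription factors of BH3-only genes in any comparison. The calls by library are shown in the plot of the 14 other genes of the pathway.

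**Figure D4:**
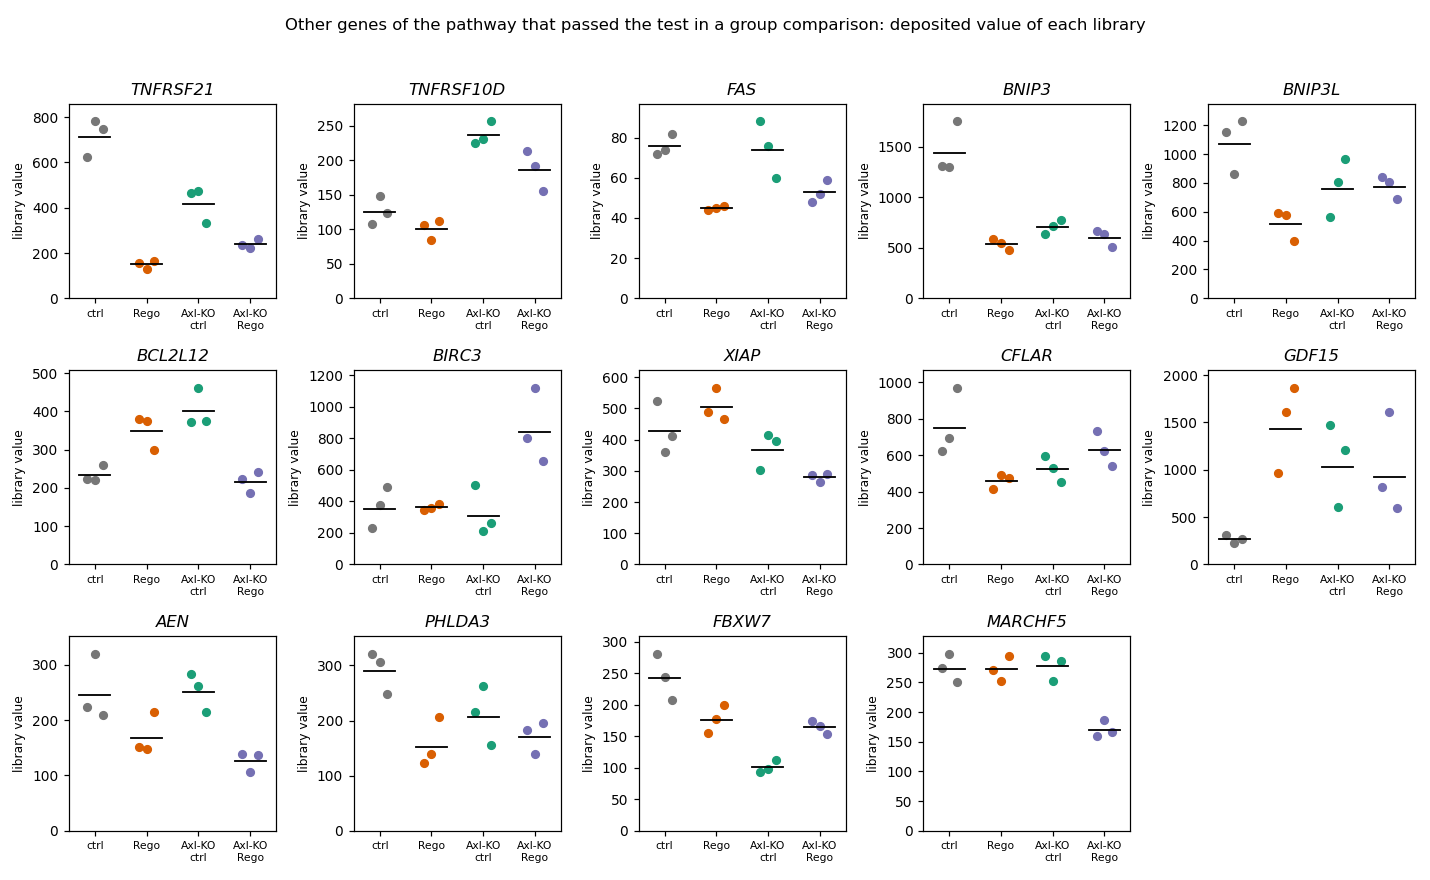
Deposited value of each library (points, linear axis from 0) in the 4 groups for the 14 pathway genes outside the 10 members that were called in a group comparison, with the group mean on the log2 scale as a line. TNFRSF21 and BNIP3 lie highest in SNU449-ctrl, GDF15 lies lowest there, BCL2L12 is high in SNU449-Rego and SNU449-Axl-KO-ctrl, and FBXW7 is lowest in SNU449-Axl-KO-ctrl.

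Of the 5 other multidomain BCL2 proteins in the table, 0 were called with Rego in SNU449 (7.81% of all genes) and 1 with Rego in Axl-KO cells (4.35%). With Axl-KO 1 was called in control cells (7.45%) and 1 in resistant cells (4.37%), and each call was of BCL2L12. BCL2L12, an atypical BCL2-like protein, had values of 224, 220 and 261 in SNU449-ctrl and 381, 374 and 300 in SNU449-Rego cells, a log2 difference of 0.58 (SE 0.19, adjusted p = 0.0760) that missed the threshold. With Rego in Axl-KO cells it fell from 373, 462 and 376 to 223, 187 and 242 (-0.89, SE 0.19, adjusted p = 0.0117). It was higher in Axl-KO than in SNU449 control cells (0.78, adjusted p = 0.0173) and lower in Axl-KO than in SNU449 resistant cells (-0.69, adjusted p = 0.0470). The difference of its Rego effects was 1.47 (SE 0.27, 95% interval 0.90 to 2.04, adjusted p = 0.00314) and was called in all 19 alternatives. The calls of the group comparisons were kept in 18, 17 and 12 of 21 alternatives, in the order given. That in resistant cells was lost when libraries were centred on the spike-in RNAs (-0.39, adjusted p = 0.196), and that in control cells in the table of these groups alone with the block (0.71, adjusted p = 0.0630).

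BNIP3 and BNIP3L are mitochondrial receptors of mitophagy with a BH3-like stretch and are induced by hypoxia. They were the 2 calls among the 5 other BH3-only and BNIP3-type genes with Rego in SNU449 (7.81% of all genes). With Axl-KO in control cells 1 of 5 was called, BNIP3 (7.45% of all genes). BNIP3 fell with Rego in SNU449 from 1311, 1302 and 1749 to 587, 545 and 474 (-1.43, SE 0.19, adjusted p = 0.000125). It was 637, 717 and 772 in SNU449-Axl-KO-ctrl cells, lower than in SNU449-ctrl cells (-1.03, SE 0.19, adjusted p = 0.00290), and 662, 638 and 507 in SNU449-Axl-KO-Rego cells. BNIP3L also fell with Rego in SNU449, from 1156, 861 and 1227 to 590, 580 and 398 (-1.05, SE 0.23, adjusted p = 0.00738). In Axl-KO cells BNIP3L was 565, 808 and 966 in controls and 841, 804 and 687 in resistant cells (0.02, 95% interval -0.46 to 0.51). The difference of its Rego effects was -1.08 (SE 0.33, adjusted p = 0.0596) and was not called. The calls of BNIP3 were kept in 21 of 21 alternatives each and that of BNIP3L in 20. The classic BH3-only genes BAD, BMF and HRK were not called, with values of 120 to 165, 76 to 196 and 19 to 32 in SNU449-ctrl cells.

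Of 10 genes of death receptors, ligands and adaptors, 2 were called with Rego in SNU449 (7.81% of all genes) and 1 in Axl-KO cells (4.35%). Each call was lower, and TNFRSF21 was called in both. The median log2 difference over the 10 genes was -0.28 with Rego in SNU449 and 0.019 in Axl-KO cells. TNFRSF21, which encodes death receptor 6, fell in SNU449 from 623, 781 and 746 to 157, 131 and 166 (-2.24, SE 0.20, adjusted p = 1.07e-06), and in Axl-KO cells from 464, 473 and 333 to 237, 222 and 260 (-0.80, SE 0.20, adjusted p = 0.0262). Both differences had the same sign, and that between them was -1.43 (SE 0.28, adjusted p = 0.00465). TNFRSF21 was also lower in Axl-KO than in SNU449 control cells (-0.77, adjusted p = 0.0219). FAS, the receptor of FAS ligand, fell in SNU449 from 72, 74 and 82 to 44, 45 and 46 (-0.74, SE 0.19, adjusted p = 0.0231). With Rego in Axl-KO cells FAS had a difference of -0.47 (95% interval -0.88 to -0.07, adjusted p = 0.184) and was not called. The difference of its Rego effects was -0.27 (adjusted p = 0.662). TNFRSF10D, a decoy receptor for TRAIL, rose with Axl-KO in control cells (0.91, SE 0.20, adjusted p = 0.00867) and in resistant cells (0.88, SE 0.20, adjusted p = 0.0170). The call of TNFRSF21 with Rego in SNU449 was kept in 21 of 21 alternatives, while those with Rego in Axl-KO cells and with Axl-KO in control cells were kept in 15 and 16, FAS in 15 and TNFRSF10D in 20 and 18. Centred on the spike-in RNAs, TNFRSF21 was -0.68 (adjusted p = 0.0978) with Rego in Axl-KO cells and -0.64 (adjusted p = 0.0952) with Axl-KO in control cells, and neither was then called. In the tables of 2 groups with the block the calls of FAS (-0.55, adjusted p = 0.0651) and of TNFRSF21 in control cells (-0.79, adjusted p = 0.0653) were lost.

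Of the 6 inhibitors of caspases, 1 was called with Rego in SNU449 (7.81% of all genes) and 1 with Rego in Axl-KO cells (4.35%). With Axl-KO 0 were called in control cells (7.45%) and 2 in resistant cells (4.37%). BIRC3, a ubiquitin ligase of the NF-kB pathway, rose with Rego in Axl-KO cells from 504, 214 and 261 to 799, 1120 and 657 (1.46, SE 0.30, adjusted p = 0.00883) and was higher in Axl-KO than in SNU449 resistant cells (1.21, SE 0.30, adjusted p = 0.0283). XIAP, the direct inhibitor of caspases, was lower in Axl-KO than in SNU449 resistant cells (-0.85, SE 0.20, adjusted p = 0.0198), at 288, 264 and 291 against 489, 566 and 466. CFLAR, which encodes the caspase-8 inhibitor c-FLIP, fell with Rego in SNU449 from 623, 697 and 971 to 414, 492 and 475 (-0.71, SE 0.21, adjusted p = 0.0430). The difference of the Rego effects was not called for BIRC3 (-1.42, adjusted p = 0.0591), XIAP (0.63, adjusted p = 0.216) or CFLAR (-0.97, adjusted p = 0.0586). The calls of the group comparisons were kept in 18 and 16 of 21 alternatives for BIRC3, 15 for XIAP and 11 for CFLAR. Centred on the spike-in RNAs, the calls of XIAP (-0.54, adjusted p = 0.0747) and CFLAR (-0.76, adjusted p = 0.0525) were lost, as was that of CFLAR in the table of 2 groups with the block (-0.71, adjusted p = 0.0805).

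Among the 16 genes of a list of DNA damage response genes, 2 were called with Rego in SNU449 (7.81% of all genes), in opposite directions. GDF15, a stress-induced cytokine, rose from 316, 230 and 272 to 969, 1615 and 1867 (2.40, SE 0.35, adjusted p = 0.000242), and PHLDA3, an inhibitor of AKT, fell from 321, 306 and 248 to 123, 140 and 207 (-0.92, SE 0.24, adjusted p = 0.0229). GDF15 was also higher in Axl-KO than in SNU449 control cells, at 1468, 611 and 1204 (1.92, SE 0.35, adjusted p = 0.00205). AEN, an apoptosis-enhancing nuclease, fell with Rego in Axl-KO cells from 283, 261 and 214 to 138, 107 and 137 (-0.98, SE 0.22, adjusted p = 0.0156). With Rego in SNU449 the difference of AEN was -0.54 (95% interval -1.01 to -0.08, adjusted p = 0.157) and was not called. The difference of the Rego effects was not called for AEN (0.44, adjusted p = 0.493) or PHLDA3 (-0.64, adjusted p = 0.317). The calls of GDF15 were kept in 21 of 21 alternatives each, that of PHLDA3 in 16 and that of AEN in 16. The call of AEN was lost when centred on the spike-in RNAs (-0.86, adjusted p = 0.0539), and that of PHLDA3 in the table of 2 groups with the block (-0.75, adjusted p = 0.0692). MDM2 and CDKN1A were not called in any comparison.

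Of the 4 regulators of MCL1 protein stability, 0 were called with Rego in SNU449 (7.81% of all genes) and 2 with Rego in Axl-KO cells (4.35%). With Axl-KO 1 was called in control cells (7.45%) and 1 in resistant cells (4.37%). These counts were not tested. FBXW7, the substrate receptor of a ubiquitin ligase that targets MCL1, was lower in Axl-KO than in SNU449 control cells, at 93, 98 and 113 against 281, 244 and 207 (-1.25, SE 0.19, adjusted p = 0.000532). It rose with Rego in Axl-KO cells to 174, 166 and 154 (0.70, SE 0.19, adjusted p = 0.0456). MARCHF5, a mitochondrial ubiquitin ligase, fell with Rego in Axl-KO cells from 295, 252 and 286 to 160, 186 and 166 (-0.70, SE 0.18, adjusted p = 0.0334) and was lower in Axl-KO than in SNU449 resistant cells (-0.67, SE 0.18, adjusted p = 0.0392). The first call of FBXW7 was kept in 21 of 21 alternatives and the second in 11, and both of MARCHF5 in 13. Centred on the spike-in RNAs, MARCHF5 was no longer called, at -0.37 (adjusted p = 0.179) with Axl-KO in resistant cells and -0.58 (adjusted p = 0.0942) with Rego in Axl-KO cells. In the table of 2 groups with the block, the calls with Rego in Axl-KO cells were lost for MARCHF5 (-0.49, adjusted p = 0.0520) and FBXW7 (0.45, adjusted p = 0.0560). HUWE1 and USP9X were not called in any comparison.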

How the data were processed

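Total RNA of 12 SNU449 libraries was prepared with QuantSeq 3′ mRNA-seq, with reads of 100 nt. Per the labels and the study's methods, the authors trimmed reads with cutadapt 4.0, aligned them with STAR 2.5.3a to GRCh38 with GENCODE release 40 and spike-ins, counted reads per gene, removed weakly expressed genes and used DESeq2 with a term for the preparation date. The deposited library values are scores, 2 raised to the variance-stabilized level after the authors removed the preparation effect, rounded to whole numbers. The deposited mean normalized counts are a signal that the authors averaged over the libraries of a table, with sums of 4156990 to 4914890 per table. The depth per library is unknown, and no interval that needs it is given. Fold changes and p-values of the authors' own comparisons were in the same tables and were not used. There were 0 library columns without a sample.

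The table over 12 libraries was analysed by limma 3.58.1 (R 4.3.3) through contrasts of 4 groups with a trended prior (eBayes), on log2(value + 1) and blocked by replicate number, which leaves 6 residual degrees of freedom per gene. P-values were adjusted by the method of Benjamini and Hochberg over 15601 genes, with spike-ins left out and no filter. The block was used because the removed preparation effect ties libraries of 1 number: the mean of the libraries of 1 number deviated by a median of 0.0013 on the log2 scale, a single library by 0.122. Correlations of deviations between same-numbered libraries were -0.485 to -0.0906 over 18 pairs. Removal of the preparation effect by itself makes such correlations negative, so that they cannot show whether same-numbered libraries shared a sample. No pair of libraries was identical. The script was tested on simulated data.

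The members and gene lists were chosen with earlier results of these data known. All 10 members and AXL are named, and of each other list the called genes with the largest difference, at most 4 per list. Genes named beside them as not called were picked after their values were seen, and 1 listed gene is not reported here. Alternatives were no block, a pseudocount of 0, a mean normalized count of at least 10, upper-quartile (75%) rescaling, centring on spike-ins, the other table of 12 libraries, eBayes without trend, the tables of 2 groups with and without the block, and leaving out each library.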

Additional observations from a re-analysis of the deposited data

Results flagged for a closer look

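None of the 10 members had a difference of the Rego effects between SNU449 and SNU449-Axl-KO cells that passed the threshold. Of the 69 other pathway genes tested, 5 did (7.25%), by the interaction term of the limma fit (Benjamini-Hochberg adjusted over all genes), where 5.87% of all genes passed. GDF15 had the largest, 2.55 on the log2 scale (SE 0.49, adjusted p = 0.00424), with all 3 SNU449-Rego libraries above all SNU449-ctrl libraries and overlapping values in the Axl-KO groups. BCL2L12 had a difference of 1.47 (SE 0.27, adjusted p = 0.00314), and its values were higher in every resistant than in every control library of SNU449 and lower in every resistant library of Axl-KO cells. TNFRSF21 had -1.43 (SE 0.28, adjusted p = 0.00465), with resistant libraries below control libraries in both backgrounds. BNIP3 had -1.19 (SE 0.27, adjusted p = 0.0136) and FBXW7 had -1.15 (SE 0.27, adjusted p = 0.0157). The first 3 kept their call in all 19 alternatives, BNIP3 in 17 and FBXW7 in 15.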

How the results depend on the processing

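Leaving the replicate block out kept every difference and moved the counts of calls. Without it, 1 member (BBC3) was called with Rego in SNU449 and 2175, 1552, 2182 and 1503 of all genes in the 4 group comparisons in the order of the report (1219, 678, 1163 and 682 with it), and 1826 against 916 in the difference of the Rego effects. Of the 69 other pathway genes, 12, 12, 8 and 11 were then called with Rego in SNU449, with Axl-KO in control cells, with Axl-KO in resistant cells and in the difference of the Rego effects. The tables of 2 groups alone without the block called 1, 2, 1 and 3 members, 2947, 3566, 3750 and 4024 of all genes and 13, 19, 20 and 20 pathway genes. Fits without the block give p-values that are too small, since same-numbered libraries mirror each other in these tables. With the block they called 0 members in each comparison, 603 of all genes with Rego in SNU449 and 603 with Axl-KO in control cells, 1160 with Axl-KO in resistant cells, and 4 and 8 pathway genes with Rego in SNU449 and with Axl-KO in resistant cells. Centring on the spike-in RNAs called 1 member (MCL1), 2326 of all genes and 13 pathway genes with Axl-KO in resistant cells, 3 pathway genes with Rego in Axl-KO cells and 9 in the difference of the Rego effects. Single libraries moved the calls too: left out in turn, they gave 0 to 2 members, 740 to 1299 genes and 4 to 8 pathway genes with Rego in SNU449, 205 to 891 and 0 to 7 with Rego in Axl-KO cells, 540 to 1275 and 4 to 7 with Axl-KO in control cells, 219 to 826 and 0 to 6 with Axl-KO in resistant cells, and 523 to 922 and 3 to 8 in the difference of the Rego effects. The counts of calls of the group comparisons in Axl-KO-Rego cells were lowest without replicate 2 of that group, at 205 and 219. Fewer libraries remain in these fits, and the cause of the shifts was not tested.

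Signs of members' differences turned under some alternatives. With the spike-in centring BCL2 was -0.057 and BCL2L11 -0.029 with Rego in SNU449, PMAIP1 0.016 with Rego in Axl-KO cells, BCL2L1 0.10 and BAK1 0.071 with Axl-KO in control cells, and BCL2 0.20, BAX 0.10, BIK 0.12, BBC3 0.19, PMAIP1 0.16 and BCL2L11 0.26 with Axl-KO in resistant cells. With Rego in SNU449, BCL2 was -0.0083 in the other table of 12 libraries and -0.0086 in the table of 2 groups, with and without the replicate block. Leaving out a library gave -0.28 to 0.31 for BCL2, -0.14 to 0.077 for MCL1, -0.029 to 0.22 for PMAIP1 and -0.19 to 0.25 for BCL2L11 with Rego in SNU449. With Rego in Axl-KO cells it gave -0.13 to 0.43 for BCL2L1, -0.43 to 0.11 for BAK1, -0.21 to 0.065 for PMAIP1 and -0.028 to 0.33 for BCL2L11. With Axl-KO in control cells it gave -0.10 to 0.39 for BCL2, -0.25 to 0.31 for BCL2L1, -0.10 to 0.27 for MCL1, -0.22 to 0.11 for BAK1, -0.034 to 0.23 for BIK, -0.10 to 0.18 for PMAIP1 and -0.42 to 0.021 for BCL2L11. With Axl-KO in resistant cells it gave -0.41 to 0.15 for BCL2, -0.42 to 0.14 for BBC3, -0.26 to 0.025 for PMAIP1 and -0.19 to 0.065 for BCL2L11, and in the difference of the Rego effects -0.0023 to 0.59 for BCL2 and -0.37 to 0.069 for BCL2L11.

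The pseudocount, the filter on low counts, the upper-quartile rescaling, the other table of 12 libraries and the prior without trend called 0 members in every comparison. The filter removes BIK. Library values compress low genes, each group is 1 population, and the mean counts carry no error.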
